A study of Mus musculus with 6 samples.

Results

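Fatty acid synthesis, desaturation and oxidation are described here for the mouse ovary by the transcript levels of 43 genes, chosen by symbol from a fixed list, out of 33036 features in the table. The list holds 14 genes of the synthesis arm (supply of acetyl-CoA, chain assembly, desaturation, elongation and their transcription factor Srebf1), 4 acyl-CoA synthetases, which feed both arms, and 25 genes of the oxidation arm. All 43 symbols were found, and all 43 passed the filter on low values. The rule selects by symbol only, but the list was drawn up with earlier results of these data known.

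The tested ovaries came from female C57BL/6J mice held in a hypobaric chamber at a simulated 6500 m (43.12 kPa, with an oxygen pressure of 8.1 kPa), and the controls from mice of the same strain and sex kept at the local pressure of Lanzhou at 1500 m (83.56 kPa, with 17.8 kPa oxygen). Each group gave 3 libraries of whole ovary, called hypoxia replicates 1 to 3 and normal-pressure replicates 1 to 3. The labels give conflicting details: a simulated 5000 m in the hypoxia descriptions, 1588 m for the controls in the series text, an age of 8 weeks there and of 6 to 8 weeks in the descriptions, and 15 days of exposure there against 15, 16 and 17 days in the descriptions of replicates 1, 2 and 3. Mice of both groups had their cycles synchronised by gavage of levonorgestrel and ethinylestradiol, and doses (0.1 and 0.02 mg/kg) are labelled for the hypoxia samples alone. There were 15 mice in each group, and whether a library is 1 mouse or a pool is not stated. The p-values therefore reflect how far the libraries of a group differ, which may be technical.

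Cells build fatty acids in the cytosol, where citrate exported from mitochondria is cut to acetyl-CoA, carboxylated to malonyl-CoA and assembled into palmitate at the expense of NADPH. Desaturases and elongases then shape the chains, and the transcription factor SREBP-1, encoded by Srebf1, drives much of this set. For oxidation, chains are coupled to coenzyme A, carried into mitochondria on carnitine and shortened step by step, and malonyl-CoA blocks the entry step. In the ovary, lipid stores supply steroid-producing cells, and fatty acid oxidation is known to matter to the oocyte.

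The values are TPM, a unit of transcript abundance corrected for gene length, with every library brought to the same sum, so levels of different genes can be compared. Read depth is unknown, since TPM keeps none. The test was limma on log2(TPM + 1) over the 17120 features that passed the filter, with p-values adjusted over all of them and called at 0.05. Across these features 3139 (18.3%) changed, with 1906 (11.1%) higher and 1233 (7.2%) lower under hypoxia, and the median log2 fold change was 0.08. Of all calls 60.7% were higher in TPM as deposited, against 46.7% with median-ratio scaling and 46.4% without normal-pressure replicate 2, the library in which protein-coding genes other than Zfp949 held the smallest share of TPM (37.3%, against 42.2% to 45.7% in the other libraries). Zfp949 was set apart because this 1 feature held 10.2% to 13.7% of TPM in the hypoxia libraries and 14.5% to 16.3% in the normal-pressure libraries. As every library has the same sum, the TPM of other genes depend on that share. Ovarian markers were present in every library. The summed TPM of 14 granulosa cell markers was 2229 to 2470 in the hypoxia libraries and 1917 to 2087 in the normal-pressure libraries, and that of 16 oocyte markers was 239 to 292 under hypoxia and 145 to 185 at normal pressure.

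The synthesis arm fell under hypoxia. Of its 14 genes 11 fell and 1, Acacb, rose (78.6% lower, where 7.2% of all features were lower), with a median log2 fold change of -0.45 against 0.08 over all features. The oxidation arm moved less. Of its 25 genes 5 fell and 1, the transcription factor gene Ppara, rose (20.0% lower), and the median was -0.19. Among the 4 acyl-CoA synthetases 2 fell (50.0%) and none rose, with a median of -0.41. These are values of whole ovary, so fewer cells of a type and less RNA per cell cannot be told apart. In 26 of the 43 genes the hypoxia libraries lay wholly below the controls and in 2 wholly above, where 11.6% and 27.6% of all features did so (39.2% either way). By arm, 11 of 14 synthesis and 12 of 25 oxidation genes lay wholly below. Fold changes were negative in 13 of 14 synthesis and 22 of 25 oxidation genes, where 6298 of the 17120 features had a negative one. With no filter on low values, 3 genes fell in each arm. Leaving out normal-pressure replicate 1 gave 5 falls in the synthesis arm, and leaving out normal-pressure replicate 3 or hypoxia replicate 2 gave 7. In the oxidation arm there were 14 falls without normal-pressure replicate 2, 14 to 16 under 3 other ways of scaling the libraries, and 3 without hypoxia replicate 2 or normal-pressure replicate 1.

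**Figure D1:**
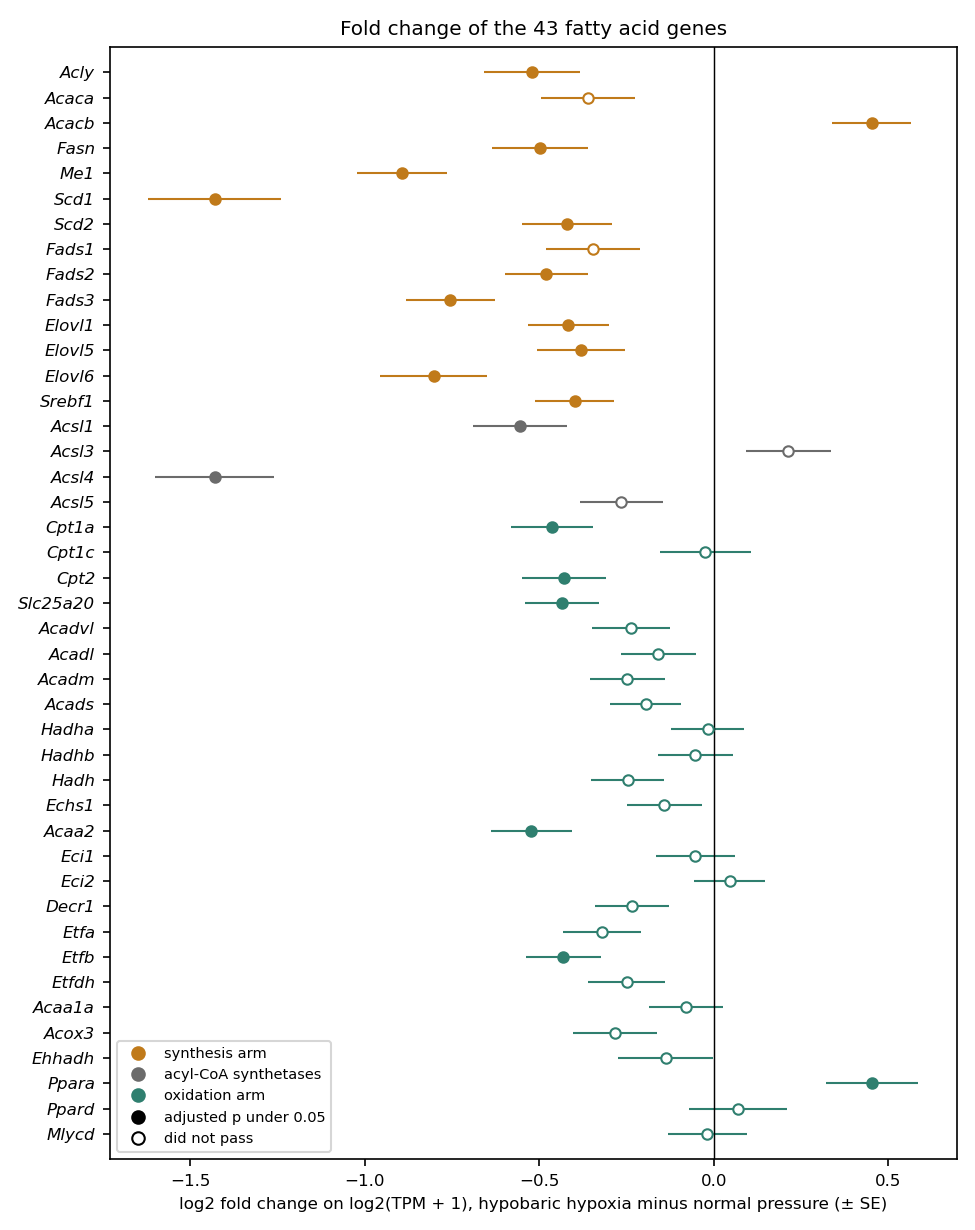
Log2 fold change of each of the 43 genes on the log2(TPM + 1) scale, hypobaric hypoxia minus normal pressure, with limma's standard error as bars; filled points passed at an adjusted p under 0.05. Synthesis genes lie left of 0 except Acacb, down to -1.43 for Scd1, and most oxidation genes lie between -0.52 and 0.05.

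Of the 5 genes for the supply of precursors and the assembly of the chain, 3 fell, 1 rose and 1 did not pass. Me1, the cytosolic malic enzyme that makes NADPH, had the highest mean of all members at normal pressure, while Scd2 had the highest under hypoxia. Me1 measured 186, 168 and 206 TPM in hypoxia replicates 1 to 3, against 343, 305 and 397 TPM in normal-pressure replicates 1 to 3. Every hypoxia library lay below every normal-pressure library, and the log2 fold change was -0.89 (SE 0.13, limma adjusted p = 0.000202), a call kept under all 16 alternatives. Acly, the citrate lyase that yields cytosolic acetyl-CoA, measured 83.5, 76.5 and 92.5 TPM under hypoxia, against 144, 96.8 and 126 TPM at normal pressure. The groups did not overlap, although normal-pressure replicate 2 stood only a little above hypoxia replicate 3 (log2 fold change -0.52, SE 0.14, limma adjusted p = 0.0154). Fasn, the multifunctional enzyme that assembles palmitate, measured 66.7, 66.3 and 62.5 TPM under hypoxia, against 116, 74.1 and 91.3 TPM at normal pressure. Its hypoxia values were close together and all below the controls (log2 fold change -0.50, SE 0.14, limma adjusted p = 0.0201). Neither Acly nor Fasn passed without normal-pressure replicate 1 (adjusted p = 0.0534 and 0.109) or with no filter on low values.

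The acetyl-CoA carboxylases, which make malonyl-CoA, went different ways. Acaca, the cytosolic form that serves synthesis, measured 31.6, 31.8 and 30.2 TPM under hypoxia, against 48.5, 31.6 and 42.6 TPM at normal pressure. Normal-pressure replicate 2 was level with the hypoxia libraries, so the groups overlapped, and Acaca did not pass the test (log2 fold change -0.36, SE 0.13, limma adjusted p = 0.0752). Acacb, the form at the mitochondrial surface whose malonyl-CoA restrains carnitine palmitoyltransferase, measured 10.9, 11.4 and 10.1 TPM under hypoxia, against 7.59, 7.13 and 8.18 TPM at normal pressure. All hypoxia libraries were above all controls (log2 fold change 0.45, SE 0.11, limma adjusted p = 0.0118), and the call was lost without hypoxia replicate 2 (adjusted p = 0.0646). The ratio of Acacb to Acaca within a library, which 1 scale factor per library cannot alter, was 0.346, 0.360 and 0.334 under hypoxia, against 0.156, 0.225 and 0.192 at normal pressure. On the log2 scale the ratio differed by 0.87 (exact two-sided permutation test over the 6 libraries, p = 0.1, the smallest p this design allows, and 0.1 adjusted over 4 such pairs).

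Among the desaturases, Scd1 showed the steepest fall of the synthesis arm. Stearoyl-CoA desaturases put the first double bond into saturated chains, and Scd1 and Scd2 are neighbours on chromosome 19 of GRCm38.p6 (44394450 to 44407709 and 44293676 to 44306864). Scd1 measured 27.4, 45.2 and 29.2 TPM under hypoxia, against 125, 82.1 and 73.0 TPM at normal pressure. The groups were well apart, with hypoxia replicate 2 the highest of its group and normal-pressure replicate 1 the highest of all (log2 fold change -1.43, SE 0.19, limma adjusted p = 0.00011), and the gene passed under all 16 alternatives. Scd2 measured 224, 204 and 213 TPM under hypoxia, against 301, 238 and 326 TPM at normal pressure. It was several times more abundant than Scd1 and fell less (log2 fold change -0.42, SE 0.13, limma adjusted p = 0.0326), and it no longer passed when hypoxia replicate 2 or 3 or normal-pressure replicate 1 or 3 was omitted. The ratio of Scd1 to Scd2 was 0.122, 0.222 and 0.138 under hypoxia, against 0.416, 0.345 and 0.224 at normal pressure, so hypoxia replicate 2 and normal-pressure replicate 3 nearly met. The log2 difference of the ratio was -1.04 (exact permutation p = 0.1, the smallest allowed). The genes are related in sequence, and the treatment of reads that match both is not known.

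The fatty acid desaturase genes Fads1, Fads2 and Fads3 lie side by side on chromosome 19 (10182877 to 10196874, 10062765 to 10101503 and 10040855 to 10060113). Fads2, which opens the conversion of dietary polyunsaturated fatty acids, measured 64.8, 60.2 and 61.8 TPM under hypoxia, against 98.2, 73.6 and 91.7 TPM at normal pressure (log2 fold change -0.48, SE 0.12, limma adjusted p = 0.0108). Fads3, the least abundant of the cluster, measured 7.55, 6.77 and 6.93 TPM under hypoxia, against 12.8, 10.6 and 14.8 TPM at normal pressure. It fell further (log2 fold change -0.76, SE 0.13, limma adjusted p = 0.000775) and passed under all 16 alternatives. Fads1, which acts later in the same route as Fads2, measured 49.1, 41.2 and 50.9 TPM under hypoxia, against 65.0, 48.2 and 68.4 TPM at normal pressure. Normal-pressure replicate 2 fell among the hypoxia values, and Fads1 did not pass (log2 fold change -0.35, SE 0.13, limma adjusted p = 0.0863).

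All 3 elongase genes of the list fell. Elovl6, which lengthens palmitate to stearate, measured 19.6, 14.1 and 17.4 TPM under hypoxia, against 37.5, 23.4 and 31.3 TPM at normal pressure (log2 fold change -0.80, SE 0.15, limma adjusted p = 0.00203). Elovl5, which lengthens polyunsaturated chains, measured 117, 102 and 119 TPM under hypoxia, against 154, 123 and 166 TPM at normal pressure, where replicate 2 stood just above the hypoxia libraries (log2 fold change -0.38, SE 0.13, limma adjusted p = 0.0464). Elovl1, which makes very long saturated chains, measured 23.3, 22.1 and 26.2 TPM under hypoxia, against 34.8, 28.2 and 33.7 TPM at normal pressure (log2 fold change -0.42, SE 0.12, limma adjusted p = 0.0207). Elovl6 kept its call without any single library. Elovl1 and Elovl5 no longer passed when hypoxia replicate 1 or 2 or normal-pressure replicate 1 or 3 was omitted. Srebf1 itself measured 20.1, 18.1 and 19.2 TPM under hypoxia, against 27.0, 22.4 and 27.6 TPM at normal pressure. The groups did not overlap (log2 fold change -0.40, SE 0.11, limma adjusted p = 0.0232), and Srebf1 no longer passed when hypoxia replicate 2 or 3 or normal-pressure replicate 1 or 3 was omitted.

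Genes around these steps came from a wider list of synthesis genes. Of 19 genes 15 were tested, and 7 fell (46.7%, where 7.2% of all features fell) and none rose (median -0.27). Idh1, a cytosolic dehydrogenase that makes NADPH from isocitrate, measured 105, 83.0 and 122 TPM under hypoxia, against 299, 236 and 358 TPM at normal pressure (log2 fold change -1.51, SE 0.16, limma adjusted p = 1.36e-05). The citrate exporter gene Slc25a1, whose product delivers the substrate of Acly, measured 26.4, 24.4 and 29.1 TPM under hypoxia, against 49.0, 40.2 and 46.4 TPM at normal pressure (log2 fold change -0.74). Neither gene's groups overlapped. Acss2, which makes acetyl-CoA from acetate, fell by 0.75, Hacd1 and Hacd3, dehydratases of the elongation cycle, by 0.45 each, Tecr, its last reductase, by 0.41 and the malate dehydrogenase gene Mdh1 by 0.41 on the log2 scale. The mitochondrial synthesis genes Mcat, Mecr, Oxsm and Cbr4 did not pass, with log2 fold changes of -0.10, -0.09, -0.06 and -0.00083. Nor did the elongase genes Elovl2 and Elovl7, the dehydratase gene Hacd2 or Hsd17b12, at 0.10, -0.12, -0.05 and -0.27. Of the 17 genes that control synthesis, 3 fell (17.6%) and none rose (median -0.08). Those 3 were Thrsp, a promoter of lipogenesis that is also on the adipocyte list used here, at -1.16, the SREBP retention factor gene Insig1 at -0.63 and the SREBP escort gene Scap at -0.45. Srebf2, the carbohydrate-responsive factor gene Mlxipl and the liver X receptor genes Nr1h3 and Nr1h2 did not pass (log2 fold changes of -0.23, 0.13, -0.06 and -0.10).

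Upstream sequences are shown for 6 members that moved, to set letters known for SREBP, hypoxia-inducible factors (HIF) and PPARs beside the values above. The 6 were chosen by hand, and each holds at least 1 match to the letters searched. Members that moved without a match, such as Fads2, Elovl6, Acsl4, Cpt2, Slc25a20 and Ppara, are not shown. RefSeq start sites of GRCm38.p6 were at hand for 38 of the 43 genes, not including Scd1, Scd2, Fads1, Acaa2 and Decr1, and the 250 bases before each start were searched on both strands. The sequences run 5′ to 3′ on the gene's strand, and capitals mark the letters found. The windows of Acacb and Fasn lie inside the annotated spans of their genes (114146321 to 114250761 and 120805958 to 120825166). So do the second-start windows of Me1 and Acsl1.
Acly (fell, chr11:100528001-100528250, minus strand): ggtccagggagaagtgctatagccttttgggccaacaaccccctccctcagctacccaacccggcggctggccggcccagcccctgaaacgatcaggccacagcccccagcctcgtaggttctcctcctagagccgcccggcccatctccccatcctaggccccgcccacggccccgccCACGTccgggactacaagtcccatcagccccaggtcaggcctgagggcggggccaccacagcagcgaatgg
Fasn (fell, chr11:120824548-120824797, minus strand): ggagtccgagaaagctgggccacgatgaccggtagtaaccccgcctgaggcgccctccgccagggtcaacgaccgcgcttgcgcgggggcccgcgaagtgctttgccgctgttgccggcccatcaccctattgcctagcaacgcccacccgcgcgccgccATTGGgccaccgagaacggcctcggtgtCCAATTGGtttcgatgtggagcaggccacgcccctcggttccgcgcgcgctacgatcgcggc
Me1 (fell, second start, chr9:86687278-86687527, minus strand): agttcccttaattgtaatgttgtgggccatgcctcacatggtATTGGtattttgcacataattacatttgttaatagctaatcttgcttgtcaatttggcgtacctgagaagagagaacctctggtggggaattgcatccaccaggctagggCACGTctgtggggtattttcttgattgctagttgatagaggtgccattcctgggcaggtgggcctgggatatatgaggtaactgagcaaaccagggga
Elovl5 (fell, chr9:77917115-77917364, plus strand): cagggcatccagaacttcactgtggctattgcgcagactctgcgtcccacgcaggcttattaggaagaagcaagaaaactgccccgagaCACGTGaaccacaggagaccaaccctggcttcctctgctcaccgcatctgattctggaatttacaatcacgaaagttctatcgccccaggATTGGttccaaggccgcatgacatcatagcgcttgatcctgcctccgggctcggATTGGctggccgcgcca
Acacb (rose, chr5:114165268-114165517, plus strand): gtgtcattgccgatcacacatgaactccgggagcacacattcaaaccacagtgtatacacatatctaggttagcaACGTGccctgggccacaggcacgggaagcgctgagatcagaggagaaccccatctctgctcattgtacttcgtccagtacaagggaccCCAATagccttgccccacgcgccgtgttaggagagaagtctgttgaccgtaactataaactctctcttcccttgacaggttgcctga
Acsl1 (fell, second start, chr8:46490716-46490965, plus strand): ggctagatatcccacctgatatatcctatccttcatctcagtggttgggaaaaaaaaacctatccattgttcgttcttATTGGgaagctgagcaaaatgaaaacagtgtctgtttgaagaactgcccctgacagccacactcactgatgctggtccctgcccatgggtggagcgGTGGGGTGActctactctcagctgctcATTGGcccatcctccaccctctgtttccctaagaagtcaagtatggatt
The sterol regulatory element was searched as TCANCCCAC and TCACNCCAC, the CCAAT box as CCAAT, the E-box as CACGTG, the HIF core as ACGTG, which every E-box of this form contains, and the PPAR element as a direct repeat of AGGTCA with 1 base between the copies. Neither sterol element form was in any of the 11 synthesis genes with a start site (1.36% and 1.22% of all 27025 genes hold each). Both forms matched 1 site in Acsl1, 76 bases before its second start, and the form TCACNCCAC was in Ehhadh. The CCAAT box was in 7 of 11 synthesis and 11 of 23 oxidation genes, where 37.5% of all genes hold it. In Fasn it lay 90, 62 and 59 bases before the start, the latest pair overlapping on opposite strands. The HIF core was in 4 of 11 synthesis genes (Acly, Acacb, Me1 and Elovl5) and in 2 of 23 oxidation genes (Acadvl and Ppard), where 18.5% of all genes hold it. Among the members the E-box was in Elovl5 alone, where 6.86% of all genes hold it. Of the 4 synthesis genes with the HIF core, Acly, Me1 and Elovl5 fell and Acacb rose. In Me1 the core lay before the second start alone, and the window before the first start held none of the letters searched. The same was true of the first start of Acsl1. The PPAR element was in none of the 38 genes and in 0.0407% of all genes. These matches describe letters in a short window and are not binding sites.

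Acyl-CoA synthetases couple fatty acids to coenzyme A for either fate. Acsl4, which prefers arachidonic acid, had the other steep fall of the whole set, with 20.3, 16.0 and 25.5 TPM under hypoxia, against 63.1, 42.5 and 66.3 TPM at normal pressure. The groups were far apart (log2 fold change -1.43, SE 0.17, limma adjusted p = 4.15e-05), and the call was kept under all 16 alternatives. Acsl1, the main form of fat and liver, measured 5.92, 7.59 and 7.58 TPM under hypoxia, against 12.3, 9.07 and 11.1 TPM at normal pressure (log2 fold change -0.56, SE 0.13, limma adjusted p = 0.00934). Its order differed from that of Acsl4, with hypoxia replicate 1 the lowest. Acsl3, a form tied to lipid droplets, and Acsl5 did not pass, at log2 fold changes of 0.21 (adjusted p = 0.241) and -0.27 (adjusted p = 0.135). The ratio of Acsl4 to Acsl3 was 1.84, 1.47 and 2.71 under hypoxia, against 7.14, 5.42 and 6.66 at normal pressure (log2 difference -1.71, exact permutation p = 0.1).

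**Figure D2:**
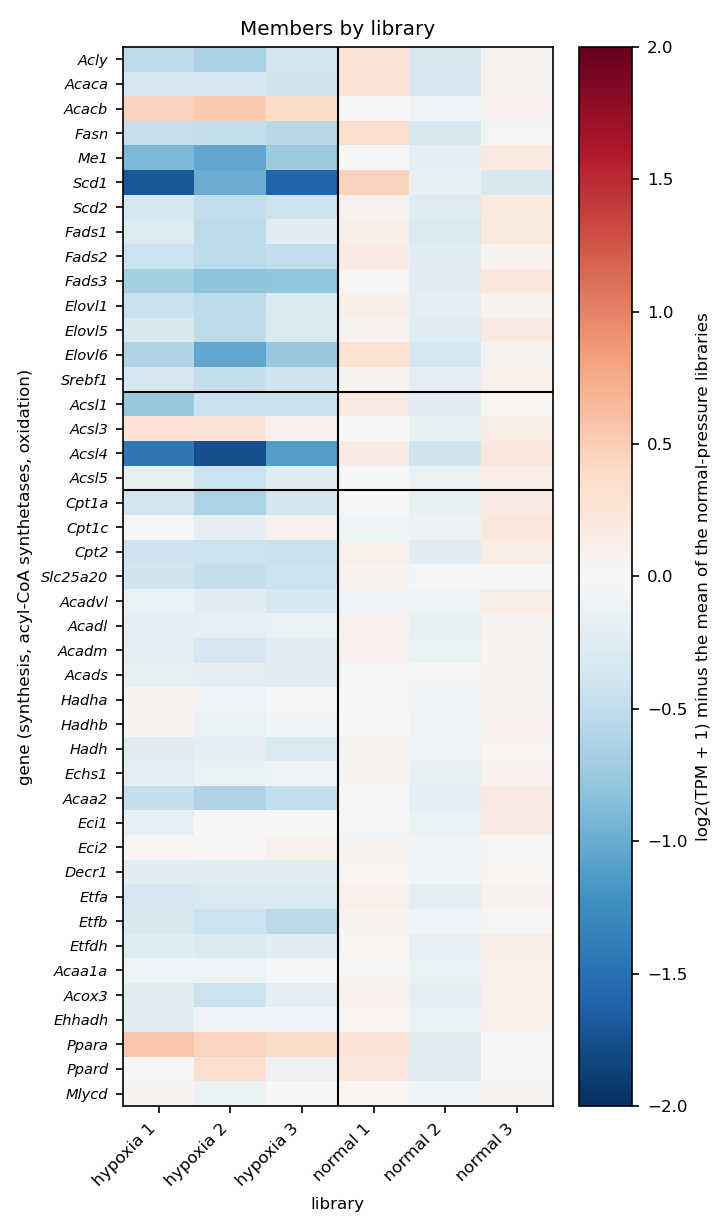
Level of each gene in each library, as log2(TPM + 1) minus the mean of the 3 normal-pressure libraries (blue lower, red higher; rows grouped as synthesis, acyl-CoA synthetases and oxidation). The hypoxia columns are darkest blue for Scd1, Acsl4, Me1, Elovl6 and Fads3, and normal-pressure replicate 2 is paler or bluer than the other controls in most rows.

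In the oxidation arm, 3 of the 4 carnitine shuttle genes fell. Cpt1a, the entry step that malonyl-CoA inhibits, measured 61.4, 51.6 and 61.3 TPM under hypoxia, against 79.3, 72.4 and 90.0 TPM at normal pressure (log2 fold change -0.46, SE 0.12, limma adjusted p = 0.0121). Slc25a20, the carrier that exchanges acylcarnitine for carnitine, measured 14.8, 13.9 and 14.5 TPM under hypoxia, against 20.9, 19.4 and 19.1 TPM at normal pressure (log2 fold change -0.43, SE 0.11, limma adjusted p = 0.00963). Cpt2, which returns the chain to coenzyme A inside the mitochondrion, measured 19.0, 18.9 and 18.6 TPM under hypoxia, against 27.6, 21.5 and 28.6 TPM at normal pressure (log2 fold change -0.43, SE 0.12, limma adjusted p = 0.0205). None of these 3 genes had overlapping groups. Cpt1c, a form of the endoplasmic reticulum best known from brain, stayed at 6.09 to 7.60 TPM under hypoxia and 6.42 to 8.33 TPM at normal pressure (log2 fold change -0.02, adjusted p = 0.918). The ratio of Cpt1a to Cpt1c was 8.07 to 8.54 under hypoxia and 10.8 to 12.0 at normal pressure (log2 difference -0.44, exact permutation p = 0.1). Cpt1a lost its call without hypoxia replicate 2 (adjusted p = 0.0887), Cpt2 when normal-pressure replicate 1 or 3 was left out, and Slc25a20 when hypoxia replicate 2 or normal-pressure replicate 1 was left out.

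Of the 9 genes for the steps of the mitochondrial cycle, 1 fell and 8 did not pass. Acaa2, the thiolase that closes the cycle, measured 73.9, 67.8 and 72.7 TPM under hypoxia, against 103, 90.9 and 117 TPM at normal pressure. It was clear of the controls in every library and kept its call under all 16 alternatives (log2 fold change -0.52, SE 0.12, limma adjusted p = 0.00526). The long-chain cycle is run by the trifunctional protein, whose subunit genes lie side by side on chromosome 5 (Hadha at 30119423 to 30154980 and Hadhb at 30155253 to 30184593). Hadha measured 95.8, 87.6 and 89.3 TPM under hypoxia, against 92.1, 88.5 and 95.3 TPM at normal pressure, with the groups interleaved (log2 fold change -0.02, SE 0.10, adjusted p = 0.929), and Hadhb did likewise at -0.05. Hadh and Echs1, which serve shorter chains, did not pass at -0.25 and -0.14. The acyl-CoA dehydrogenase genes, which take the opening step for very long (Acadvl), long (Acadl), medium (Acadm) and short (Acads) chains, did not pass either, with log2 fold changes of -0.25 to -0.16 and adjusted p-values of 0.124 to 0.328. Acadl, the most abundant of them, measured 44.6, 45.2 and 46.1 TPM under hypoxia, against 53.7, 45.5 and 53.3 TPM at normal pressure. Its groups overlapped, since normal-pressure replicate 2 was level with the hypoxia libraries, while those of Acadvl, Acadm and Acads did not.

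Electron transfer flavoprotein carries the electrons of these dehydrogenases to the respiratory chain. Its beta subunit gene Etfb measured 72.2, 67.3 and 61.8 TPM under hypoxia, against 94.3, 86.1 and 91.6 TPM at normal pressure (log2 fold change -0.43, SE 0.11, limma adjusted p = 0.011), a call lost without hypoxia replicate 3. Etfa, for the alpha subunit, measured 48.2, 49.3 and 49.4 TPM under hypoxia, against 66.1, 53.7 and 65.2 TPM at normal pressure. It lay just beyond the threshold (log2 fold change -0.32, SE 0.11, limma adjusted p = 0.0566), and Etfdh, which passes the electrons on to ubiquinone, did not pass at -0.25. In all 3 genes the hypoxia libraries were below the controls.

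The auxiliary enzyme genes for unsaturated chains and the peroxisomal genes did not pass. Among the auxiliary enzymes, Eci2, an isomerase, measured 37.0, 36.5 and 38.1 TPM under hypoxia, against 37.3, 34.2 and 36.5 TPM at normal pressure (log2 fold change 0.05), Eci1 was at -0.05 and the reductase gene Decr1 at -0.23. In the peroxisome, where very long and branched chains are shortened, the thiolase gene Acaa1a measured 40.8, 40.7 and 43.0 TPM under hypoxia, against 44.7, 39.9 and 47.4 TPM at normal pressure (log2 fold change -0.08). Its near-identical copy Acaa1b was listed at 0.24 to 0.58 TPM, so the division of reads between them is uncertain. The oxidase gene Acox3 was at -0.28 and the bifunctional enzyme gene Ehhadh, the lowest member at 1.52 to 2.19 TPM, at -0.14.

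Of the regulators of oxidation, Ppara, a nuclear receptor that switches on oxidation genes, measured 15.4, 14.3 and 13.4 TPM under hypoxia, against 12.5, 8.43 and 9.99 TPM at normal pressure. The groups did not overlap, and the gene rose (log2 fold change 0.45, SE 0.13, limma adjusted p = 0.0262), a call lost without hypoxia replicate 1 or normal-pressure replicate 2 or 3. Ppard, a related receptor, measured 12.1, 15.2 and 11.0 TPM under hypoxia, against 14.1, 10.0 and 12.3 TPM at normal pressure, with no separation (log2 fold change 0.07, adjusted p = 0.772). Mlycd, which removes malonyl-CoA, was at 10.1 to 11.8 TPM under hypoxia and 10.4 to 11.5 TPM at normal pressure (log2 fold change -0.02, adjusted p = 0.928).

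A wider list of 31 oxidation genes had 27 tested, of which 2 fell and 1 rose (median -0.08). These are 7.4% lower and 3.7% higher, where 7.2% and 11.1% of all features were. The thioesterase gene Acot1 and the peroxisomal thiolase gene Scp2 fell by 0.48 each on the log2 scale, and Abcd2, a peroxisomal transporter of very long chains, measured 6.40, 7.85 and 5.82 TPM under hypoxia, against 4.35, 3.53 and 3.85 TPM at normal pressure (log2 fold change 0.64, SE 0.13, limma adjusted p = 0.00337). Cpt1b, the muscle form of the entry enzyme, was below the filter at 0.09 to 0.21 TPM. Among 12 tested genes of PPAR and PGC-1 control, 1 rose (8.3%) and 2 fell (16.7%), with a median of 0.12. The partner receptor gene Rxra rose by 0.35, while Angptl4, a lipase inhibitor, fell by 0.57 and the orphan receptor gene Esrra by 0.37. Pdk4 and Ucp2, known targets of PPARs, did not pass at 0.10 and 0.02. Of 8 tested genes for fatty acid uptake, activation and binding, 3 rose (37.5%) and 1 fell (12.5%), with a median of -0.01. The fatty acid translocase gene Cd36 measured 25.5, 30.8 and 25.4 TPM under hypoxia, against 20.2, 17.8 and 17.8 TPM at normal pressure (log2 fold change 0.52), the binding protein gene Fabp5 rose by 0.59 and the transport protein gene Slc27a1 by 0.40. Dbi, which encodes the acyl-CoA binding protein, fell by 0.55. Among the 4 that did not pass was Acsbg1, an acyl-CoA synthetase gene outside the Acsl family. It measured 302, 295 and 289 TPM under hypoxia, against 316, 269 and 323 TPM at normal pressure (log2 fold change -0.03, limma adjusted p = 0.889). Acsbg1 was thus far more abundant than any of the 4 Acsl members.

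Summed over members, the synthesis arm measured 932, 867 and 945 TPM under hypoxia, against 1515, 1165 and 1498 TPM at normal pressure. The oxidation arm measured 966, 925 and 941 TPM under hypoxia, against 1130.2, 1012 and 1174 TPM at normal pressure. The mean synthesis sum was thus 65.7% of the control mean and the mean oxidation sum 85.4%. Within a library, the ratio of the synthesis to the oxidation sum was 0.965, 0.938 and 1.00 under hypoxia (0.969 ± 0.0332, SD, n = 3), against 1.34, 1.15 and 1.28 at normal pressure (1.26 ± 0.0960, SD, n = 3). A scale factor per library cannot alter this ratio, and its groups did not overlap. Without Me1 it was 0.756 to 0.785 under hypoxia and 0.850 to 1.04 at normal pressure. The difference between the arms was not tested, since the sums are scores over chosen genes.

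**Figure D3:**
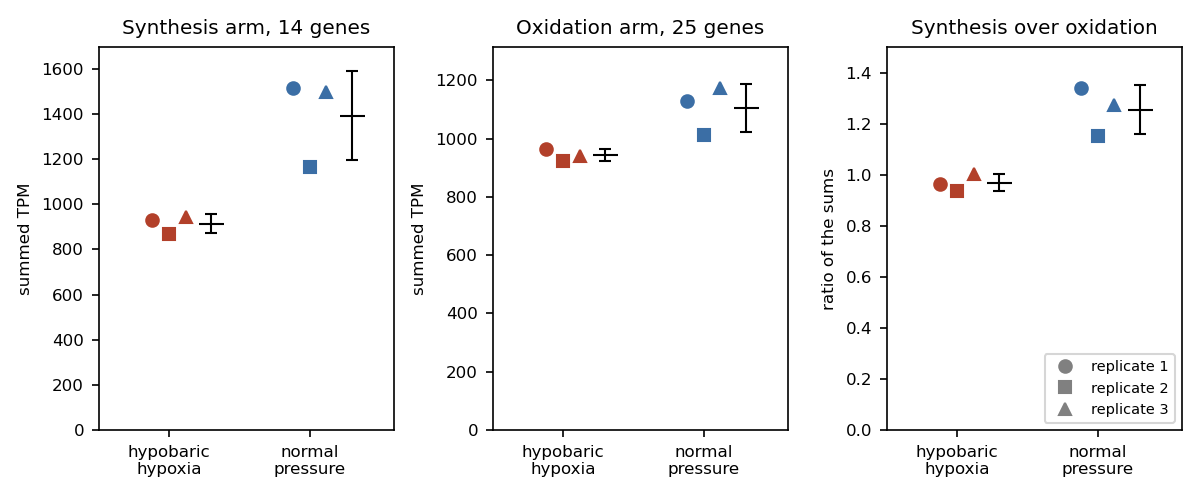
Summed TPM of the 14 synthesis genes, of the 25 oxidation genes, and their ratio in each library, with a point for each library and the mean ± SD as black bars (n = 3 a group). The hypoxia libraries lie at 867 to 945 TPM for synthesis and 925 to 966 TPM for oxidation, with ratios of 0.938 to 1.00, below those of the normal-pressure libraries (1.15 to 1.34).

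Most markers of fat and of the corpus luteum were also lower under hypoxia. Of 15 white adipocyte markers 14 were tested, 13 fell (92.9%, against 7.2% of all features) and none rose (median -0.86). Their sums were 189, 285 and 191 TPM under hypoxia, against 532, 436 and 450 TPM at normal pressure. Plin4, Cfd and Thrsp fell most (log2 fold changes of -2.46, -1.45 and -1.16), and Lipe, Pnpla2 and Plin1 fell least (-0.45, -0.42 and -0.39). None was at 0 in every library, and the hormone gene Lep was below the filter at 0.26 to 0.84 TPM. The adipokine gene Adipoq measured 9.51, 17.7 and 8.00 TPM under hypoxia, against 25.7, 22.4 and 19.1 TPM at normal pressure. Of 6 brown adipocyte markers 4 were tested and 1, Cox7a1, fell, with sums of 10.2 to 15.1 TPM under hypoxia and 22.1 to 24.8 TPM at normal pressure, while Ucp1 is not used here. Of 15 luteal cell markers 14 were tested, 12 fell (85.7%) and none rose (median -1.86). Their sums were 1490.2, 973 and 1745 TPM under hypoxia, against 5181, 3988 and 6343 TPM at normal pressure. Akr1c18, Sfrp4 and Ptgfr fell most (log2 fold changes of -4.38, -3.95 and -3.56), and Fdx1, Scarb1 and Prlr least (-1.54, -1.42 and -1.22). Oxt, the only luteal marker below the filter, was at 0 to 0.05 TPM. The part of either cell type in the changes of the fatty acid genes was not tested.

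The hypoxia libraries were ordered differently by these marker lists. Hypoxia replicate 2 was the highest of its group for 11 of 15 white adipocyte markers. It was the lowest for 2 of them, Gpd1 and Plin4, the marker with the steepest fall of that list. For 14 of 15 luteal markers hypoxia replicate 2 was the lowest. It was the lowest for 10 of 14 synthesis genes, among them Me1, Acly, Scd2, Elovl6 and Srebf1, and the highest for 3, which were Scd1, Acaca and Acacb. Scd1 had the order of Adipoq in that respect, and the ratio of Scd1 to Adipoq was 2.88, 2.55 and 3.66 under hypoxia, against 4.88, 3.67 and 3.81 at normal pressure. Hypoxia replicate 3 thus nearly met normal-pressure replicate 2. In the controls, replicate 2 was the lowest for 13 of 14 synthesis genes, 23 of 25 oxidation genes, 14 of 15 luteal markers and 7 of 15 white adipocyte markers. Its median-ratio scale factor was 0.851, against 1.03 and 1.05 in normal-pressure replicates 1 and 3, so its TPM were lower in general. How often a library was the lowest over all features was not counted, so these counts have no background share. These orders were noticed after the values were seen, and no test was made on them.

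**Figure D4:**
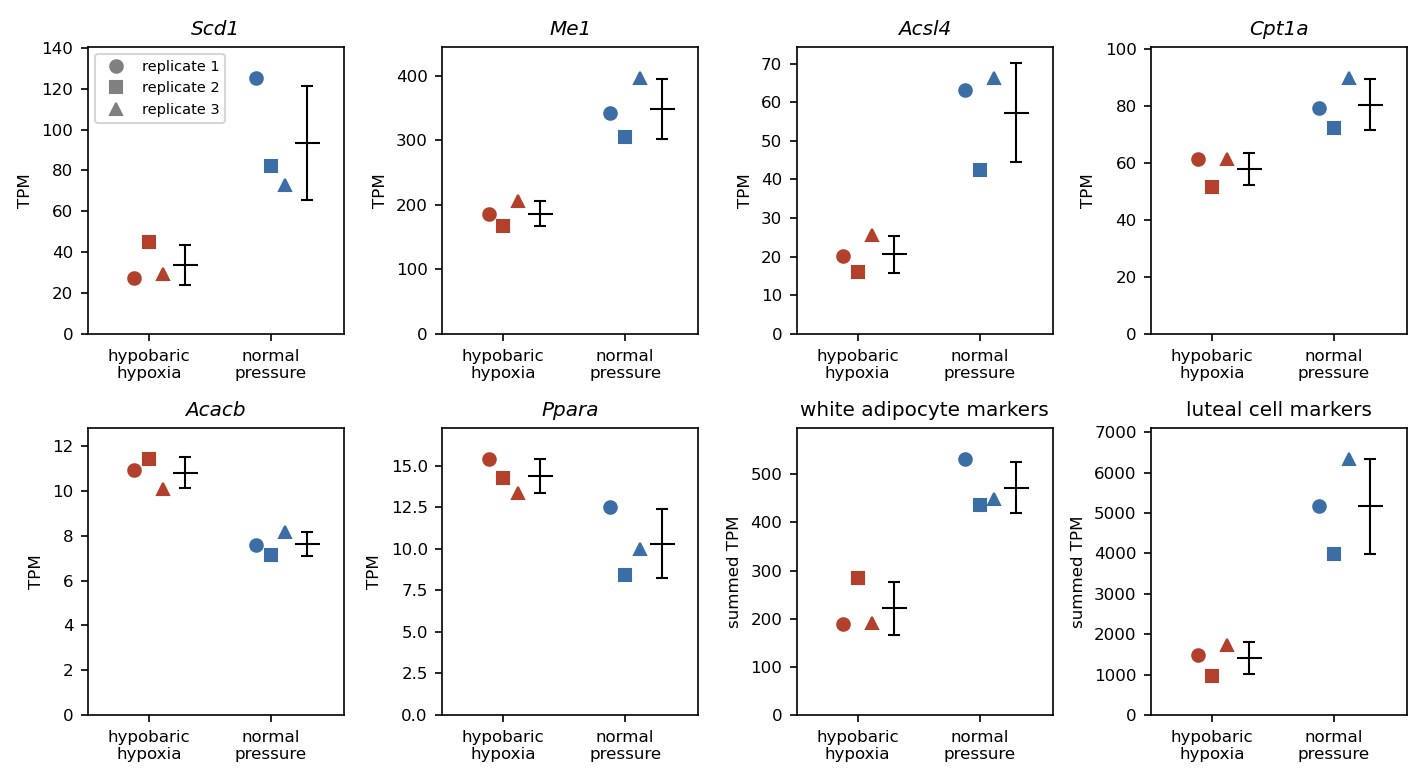
TPM of Scd1, Me1, Acsl4, Cpt1a, Acacb and Ppara and summed TPM of the 15 white adipocyte and 15 luteal cell markers, by library (symbols mark the replicate number, black bars the mean ± SD, n = 3 a group). Hypoxia replicate 2 is the highest hypoxia library for Scd1 (45.2 TPM) and for the adipocyte sum (285 TPM), and the lowest for Me1 (168 TPM), Acsl4 (16.0 TPM) and the luteal sum (973 TPM).

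Under each processing choice, the share of genes called lower was larger in the synthesis than in the oxidation arm. The oxidation arm had most falls with the 3 alternative scalings and without normal-pressure replicate 2, where Acadl, Acadm, Acads, Hadh, Decr1, Etfdh and Acox3 also passed. Acsl3, Hadha, Hadhb, Eci1, Eci2, Cpt1c, Ehhadh, Ppard and Mlycd passed under no alternative.

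**Figure D5:**
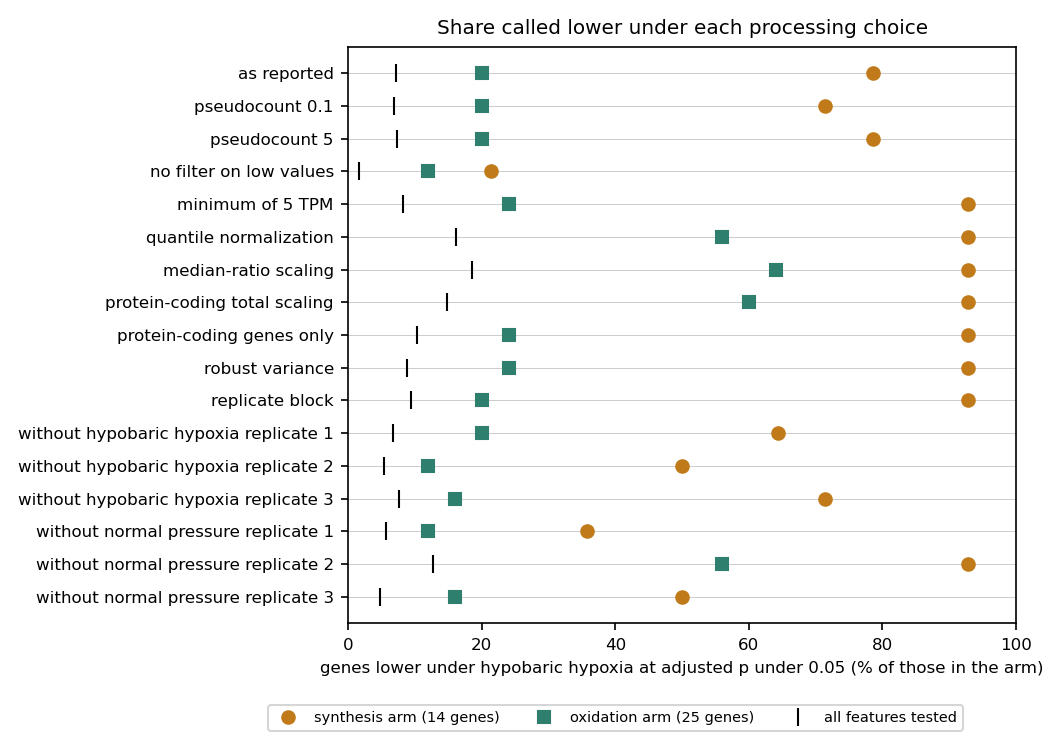
Share of the 14 synthesis genes (circles), the 25 oxidation genes (squares) and all features tested (bars) that were lower under hypobaric hypoxia at an adjusted p under 0.05, for the values as reported and for each of the 16 alternatives. As reported the shares are 78.6%, 20.0% and 7.2%.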

How the data were processed

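The table the authors deposited gives TPM for 33036 features in 6 libraries. HISAT2, Bowtie2, DESeq2 and GRCm38.p6 are named in the submitters' processing notes, with no versions or roles. How reads were counted, against which annotation, is not given in the sources used here. Per the labels, column-purified total RNA went into a SMARTer mRNA library kit, and all samples carry batch 1.

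Features reaching 1 TPM in at least 3 libraries were fitted in limma (3.58.1, under R 4.3.3) with a variance trend. The response was log2(TPM + 1), computed from the deposited TPM, for hypobaric hypoxia minus normal pressure, two-sided, with Benjamini-Hochberg adjustment over all 17120 features. This scale understates the fold changes of low genes. The fit was tested on simulated data, and 16 alternatives were run. Members, lists and marker genes were chosen with earlier results of these data known, and lists are described by counts and medians with no set test. All 6 values are given for members that passed and for the most abundant member of each role. From other lists the 3 highest and 3 lowest fold changes that passed are named, beside genes named for their role. Sequences and coordinates are from RefSeq on GRCm38.p6.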

Additional observations from a re-analysis of the deposited data

How the results depend on the processing

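Of the 43 genes, Me1, Scd1, Fads3, Acsl4 and Acaa2 kept their calls under all 16 alternatives, and no gene that passed in any fit changed sign. With no filter on low values, 3 synthesis genes, 3 oxidation genes and 1 acyl-CoA synthetase were lower and no oxidation gene was higher, among 687 features higher and 546 lower. Falls in the oxidation arm numbered 14 with quantile normalization (3399 features higher and 2772 lower), 16 with median-ratio scaling (3152 features lower, arm median -0.28) and 15 with protein-coding total scaling (3756 features higher and 2533 lower). Leaving out each library in turn gave 5 to 13 falls and 0 to 1 rises in the synthesis arm, 3 to 14 falls and 0 to 1 rises in the oxidation arm, and 1170 to 2044 features higher and 795 to 2143 lower. The minimum of 5 TPM left Ehhadh untested.

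The groups share replicate numbers, but same-numbered libraries did not deviate together from their group means (r = -0.03, 0.11 and -0.05 across features for numbers 1, 2 and 3), and hypoxia replicate 1 correlated best with normal-pressure replicate 3 (0.11), so the numbers were not taken as pairs. With the replicate block the synthesis arm had 13 falls, Acaca and Fads1 being the additions, and the oxidation arm 5, among 2521 features higher and 1596 lower. Depth is unknown, so no counting error can be given, and 3 libraries a group cannot reach p under 0.1 in an exact permutation test.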

Other observations

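All 14 tested oocyte markers rose (median log2 fold change 0.64), where 11.1% of all features rose. The rise was largest in Kit (1.05), Nlrp14 (0.77) and Bmp15 (0.69) and smallest in Nlrp5 (0.58), Nobox (0.54) and Dppa3 (0.45). All 5 tested erythroid markers rose (median 2.65), which were Alas2 and the globin genes Hba-a1, Hba-a2, Hbb-bs and Hbb-bt, with sums of 1664 to 2240 TPM in the hypoxia libraries and 247 to 447 TPM in the normal-pressure libraries. Of 14 granulosa cell markers 3 rose (21.4%) and 2 fell (14.3%, where 7.2% of all features fell). Esr2, Fst and Amhr2 were at 1.20, 0.70 and 0.32, and Cyp19a1 and Inhba at -1.98 and -0.48. Of 8 theca and interstitial cell markers 4 rose and 2 fell. Insl3, Ptch1, Gli1 and Enpep were at 1.91, 0.63, 0.51 and 0.42, and Mgarp and Hsd3b1 at -1.03 and -0.58. Of 7 tested endothelial markers Vwf alone passed (14.3%, where 18.3% of all features passed), at 0.60. The 7 tested macrophage markers had a median of -0.07 and sums of 163 to 186 TPM in the hypoxia libraries and 172 to 210 TPM in the normal-pressure libraries.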
